A study of Mus musculus with 16 samples.

Results

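Microglia of TAU mice were set against microglia of young SIRT1F/F mice, group by group as the sample titles name them, over all probes of 1 expression array. TAU has 2 arrays and young SIRT1F/F has 3, so the comparison uses 5 of the 16 arrays in the 6 groups of the series. The labels call the first group TAU and give no transgene, promoter, mutation or age for them, nor whether they carry the floxed Sirt1 gene. SIRT1F/F mice carry floxed Sirt1, the gene of a NAD-dependent deacetylase, with no Cre recombinase named, and were labelled young or old. TAU/LysM (2 arrays, no age given) and young LysM-Cre/SIRT1F/F (3 arrays, called young LysM-Cre here) form the same contrast with a Cre recombinase from the lysozyme locus, which is active in myeloid cells, on both sides. All groups share a mixed BL6 and 129/Sv background. Brains were digested, myelin debris was depleted with antibody-coated beads, and cells bearing the integrin CD11b were collected on magnetic beads. The labels do not say that arrays of a group come from separate animals, so a p-value reflects only how far the arrays scatter, possibly for technical reasons. Because TAU has no labelled age, an effect of age cannot be told apart from that of the TAU genotype in the comparison with young mice alone.

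Microglia are brain-resident macrophages. In the healthy brain they express a homeostatic set of receptors and transcription factors, such as P2RY12, TMEM119, CX3CR1 and SALL1. Around amyloid, dying neurons or demyelinated tissue they take on a disease-associated state, first described in mouse models of Alzheimer's disease, in which genes of lipid uptake, lysosomes and adhesion such as Apoe, Lpl, Cst7, Itgax and Clec7a are raised and homeostatic genes are lowered. Its later stage is known to depend on the receptor TREM2 and its adaptor TYROBP. Tau, the product of Mapt, is a microtubule-binding protein of neurons that aggregates in Alzheimer's disease and in frontotemporal dementias.

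Values are normalized log2 levels, and a difference is TAU minus young SIRT1F/F with its standard error (SE). The median intensity of the 16 arrays was between 202.9 and 283.6, and between 54.9% and 57.5% of the 25697 probes were above background on each. The 16344 probes above background on at least 2 arrays were tested, and they cover 10986 named genes, each represented by its probe of highest mean level. Across the tested probes the TAU arrays correlated at 0.993 with each other and at 0.964 to 0.980 with the young arrays, which correlated at 0.984 to 0.987 among themselves. Of 8 defining microglial markers 6 were tested, and all 6 were above background on all 5 arrays, with Tmem119 and Siglech lower in TAU. Defining markers of other cells were also present. Of 6 tested oligodendrocyte markers, 6 were above background on both TAU arrays and 4 on all young arrays, and 5 were higher in TAU. For astrocytes these counts were 4, 1 and 4 of 4 tested, and for choroid plexus 4, 4 and 3 of 4 tested. A probe can pass the filter through the 2 TAU arrays alone, as Gfap and Mog could. Such counts, here and in the lists of other cell types, are therefore partly fixed by the filter. None of the 4 tested neutrophil markers and none of the 4 tested markers of border-associated macrophages was called.

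Mapt, the gene of tau, was measured by 3 dim probes. The brightest had 6.99 and 7.56 on the TAU arrays, against 6.80, 6.61 and 6.72 on the young SIRT1F/F arrays (0.56 ± 0.20, limma adjusted p = 0.0870). The others differed by 1.58 (adjusted p = 0.000983) and by 0.29 (adjusted p = 0.441). The raw signals of these probes were 185 to 435, close to the median of an array, and where they lie relative to any transgene is not given in the sources used here, so they do not check the label. Sirt1 itself was slightly lower in TAU, with 9.48 and 9.68 on TAU arrays and 10.21, 9.84 and 10.07 on young arrays. The groups did not overlap (-0.46 ± 0.14, adjusted p = 0.0445), and the call was lost in 9 of 16 other settings, among them cyclic loess, the replicate block and 4 of 5 single-array leave-outs. Of the 6 tested sirtuins Sirt7, a nuclear deacetylase, was the other called, at -0.32 ± 0.09 (adjusted p = 0.0301). Its call was lost in 8 of 16 other settings. Among all genes 5.77% were called lower.

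At an adjusted p under 0.05, 1953 of the 16344 probes (11.9%) were called different between TAU and young SIRT1F/F, 1032 higher (6.31%) and 921 lower (5.64%) in TAU. At an unadjusted p under 0.05 there were 4539, and on 43.7% of tested probes the TAU and young arrays did not overlap. Genes named for the largest differences were taken from those without overlap, so their non-overlap is no further result. By gene, 1412 of 10986 were called (12.9%), 778 higher (7.08%) and 634 lower (5.77%). The higher calls reached further: 466 called probes differed by over 1 log2 unit upward and 66 downward, and the range ran to 4.28 and to -2.75. Of the genes called, 60 of the higher and 8 of the lower ones belong to the 13 lists of other cell types. Each of these lists holds 6 to 23 tested genes, so these counts do not give the part of other cells among the calls. On the autosomes and the X chromosome, 5.43% to 9.38% of tested genes were called higher and 3.29% to 7.47% lower, and of 4 tested on the Y chromosome 0 were called. The split depends on scaling, since cyclic loess gave 1169 higher and 605 lower, or 65.9% higher against 52.8% in the reported fit. Among 3027 genes with several tested probes, 601 had at least 1 called, 122 had all called, and 2 (Mpv17l and Phldb1, named after their values were seen) had probes called in opposite directions.

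Single arrays weigh heavily at this size. Without TAU 1 the counts were 261 higher and 82 lower, without TAU 2 they were 548 and 264, and without young SIRT1F/F 3 they were 565 and 355. With 1 TAU array left, that array is taken to vary as the arrays of the other groups do. Fitting only these 5 arrays gave 314 higher and 83 lower. Of 176 genes named by rule or after their values were seen, 151 were called, a count set largely by the choice, since most rules take called genes. Most of the 151 lost the call when at least 1 of the 5 arrays was left out. Lost calls are given for some genes only, so a gene without that remark need not be steadier. Cxcl10, Klrd1, Hspe1 and Pfkl, for example, each lost the call in 9 of 16 other settings.

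**Figure D1:**
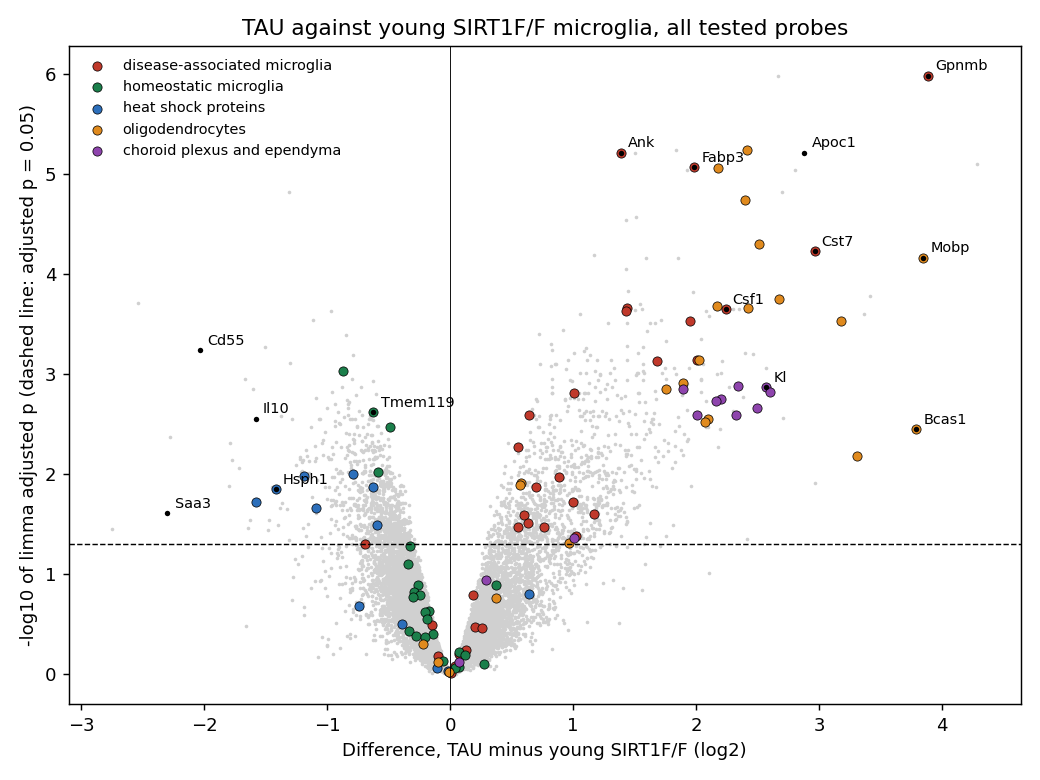
Each point is 1 of the 16344 tested probes, by its log2 difference, TAU minus young SIRT1F/F (x axis), and the -log10 of its limma adjusted p (y axis), with an adjusted p of 0.05 dashed. Coloured points are the representative probes of genes in 5 lists and black dots mark the labelled genes; Gpnmb has the smallest p of the coloured points, at a difference of 3.88, and the heat shock points called all lie on the lower side.

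The disease-associated genes were the microglial list with the most calls. Of 32 tested members, 22 were higher and 1 was lower in TAU, with a median difference of 0.73, where 7.08% of all genes were called higher, 5.77% lower, and the median of all probes was -0.04. The mean level of the list was 12.39 and 12.53 on the TAU arrays, against 11.57, 11.45 and 11.52 on the young SIRT1F/F arrays, so the groups did not overlap. In a bulk sample a larger share of cells in a state and more RNA per cell cannot be told apart, here and in the results that follow. Without TAU 1 and without TAU 2, 13 members stayed called higher in each case, and without a young array 16 to 19 did.

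**Figure D2:**
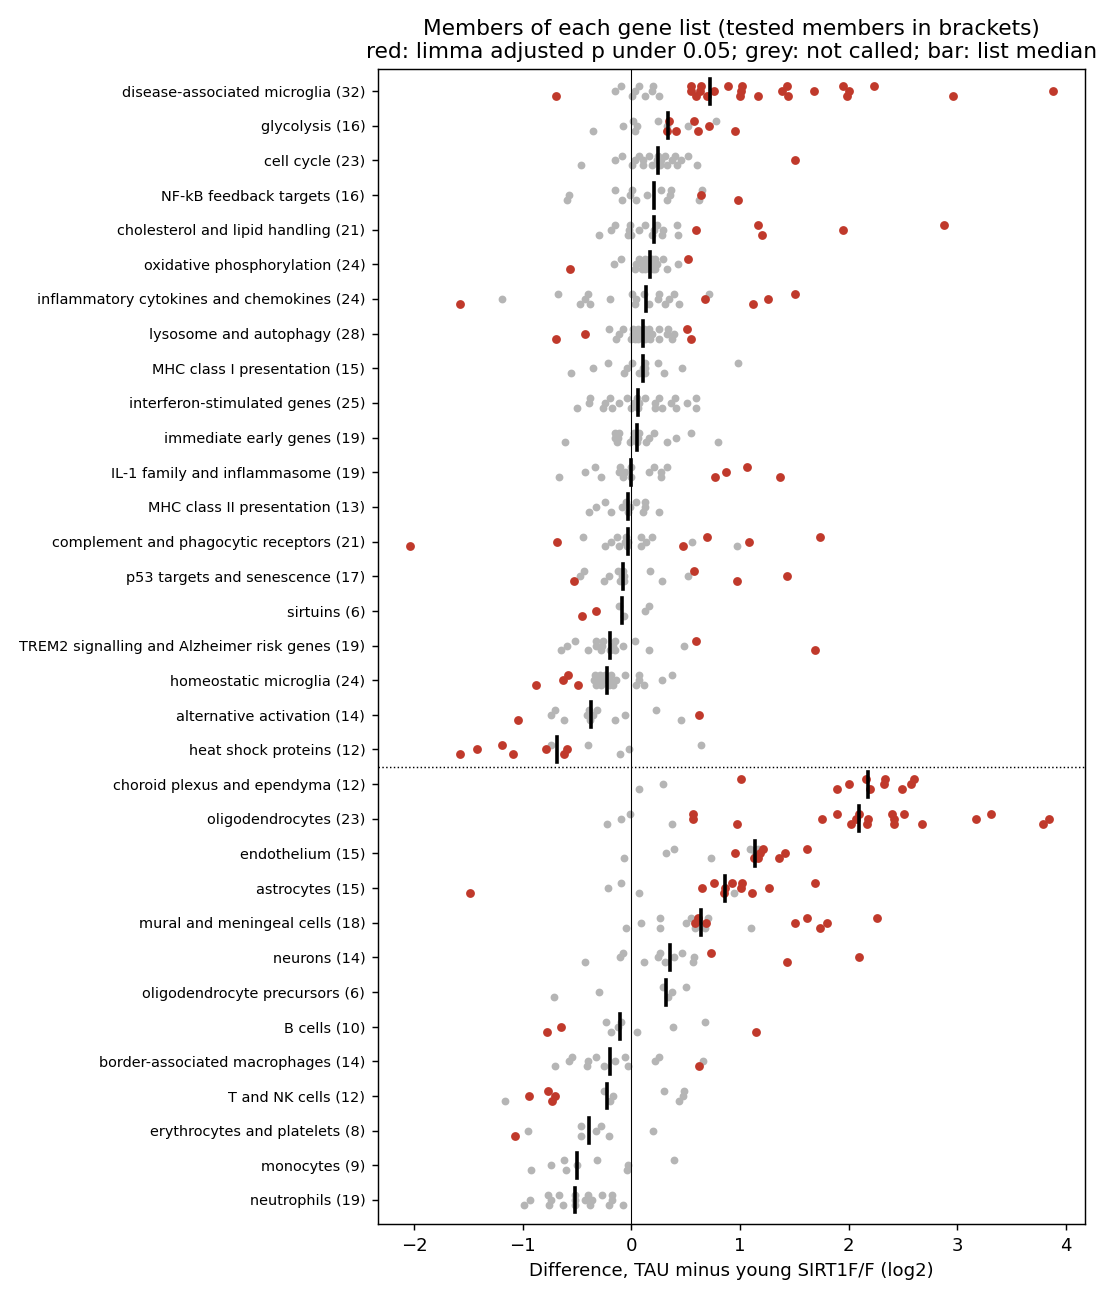
Each point is a gene's log2 difference, TAU minus young SIRT1F/F (x axis), grouped by list (20 microglial lists above the dotted line, 13 lists of other cell types under it, tested members in brackets); red points had a limma adjusted p under 0.05 and the bar is the list median. The disease-associated list has the highest median of the microglial lists, 0.73, and the heat shock list the lowest, -0.68; choroid plexus and oligodendrocyte genes reach medians of 2.18 and 2.09.

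Among surface and adhesion proteins, Gpnmb, a transmembrane glycoprotein of phagocytes loaded with lipid, rose the most. It had 12.480 and 13.002 on the TAU arrays, against 8.998, 8.707 and 8.864 on the young SIRT1F/F arrays. All TAU values lay more than 3 log2 units above every young one, a 14.8-fold difference (3.88 ± 0.22, limma adjusted p = 1.04e-06). A second Gpnmb probe differed by 3.36 and was called, and another, near background, differed by 0.33 (adjusted p = 0.455).

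Itgax, the integrin CD11c, had 8.94 and 8.88 in TAU and 7.10, 6.62 and 6.99 in young SIRT1F/F. The TAU arrays were close together and clear of the young ones (2.00 ± 0.27, adjusted p = 0.000715). Clec7a, the beta-glucan receptor dectin-1, had 13.12 and 13.52 in TAU and 11.90, 11.72 and 12.02 in young SIRT1F/F (1.44 ± 0.16, adjusted p = 0.000217); other probes of it differed by 1.92 and 1.88 and were called, and 1 differed by 0.33 and was not. Axl, a receptor tyrosine kinase for apoptotic cells, was higher by 0.89, and the tetraspanins Cd63 and Cd9 by 0.64 and 0.55. The receptor Trem2 and its adaptor Tyrobp were not called, at -0.15 (adjusted p = 0.323) and 0.04 (adjusted p = 0.830). Trem2 had its TAU arrays below all young arrays, and Tyrobp overlapped between the groups.

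Members of the list that handle lipids were among those called. Lpl, lipoprotein lipase, had 13.90 and 13.75 in TAU and 12.02, 11.76 and 11.85 in young SIRT1F/F, with no overlap (1.95 ± 0.23, adjusted p = 0.000293). Fabp3, a fatty acid-binding protein, had 9.999 and 10.069 in TAU against 7.787, 8.259 and 8.103 in young SIRT1F/F (1.98 ± 0.15, adjusted p = 8.54e-06). Fabp5 was higher by 1.00, and Ch25h, which makes 25-hydroxycholesterol, by 1.17. Apoe, the main apolipoprotein of the brain, had 15.06 and 15.20 in TAU and 14.79, 14.20 and 14.60 in young SIRT1F/F (0.60 ± 0.16, adjusted p = 0.0255). Its raw signals of 15288 to 37727 approach the brightest probes of an array, 42456 to 49192, where intensities compress.

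The neighbours of Apoe on chromosome 7 differed by more. In the RefSeq order Apoc2, Apoc4, Apoc1 and Apoe lie side by side, and all encode apolipoproteins, those besides Apoe being small. Apoc1 had 10.51 and 10.77 on TAU arrays, against 8.21, 7.54 and 7.54 on young SIRT1F/F arrays. Every TAU value exceeded every young one by over 2 log2 units (2.88 ± 0.21, adjusted p = 6.09e-06), and a second probe gave 2.66 (adjusted p = 1.04e-06). Apoc4, a dimmer probe, had 8.51 and 8.64 in TAU and 6.49, 6.53 and 5.67 in young SIRT1F/F (2.35 ± 0.26, adjusted p = 0.00022). Apoc2 had 2 dim probes that were not called and differed in sign, 0.81 (adjusted p = 0.0778) and -0.46 (adjusted p = 0.152).

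Secreted factors of the list were higher as well. Csf1, a growth factor for microglia, had 11.75 and 12.12 in TAU and 9.58, 9.36 and 10.14 in young SIRT1F/F, without overlap (2.24 ± 0.25, adjusted p = 0.000224). Igf1, insulin-like growth factor 1, had 10.59 and 10.81 in TAU against 9.37, 9.05 and 9.39 in young SIRT1F/F (1.43 ± 0.16, adjusted p = 0.000235). The chemokine Ccl6 differed by 1.01, the lectin Lgals3 by 0.64 and its binding partner Lgals3bp by 0.69.

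The list also holds lysosomal proteases and an inhibitor of them. Cst7, the cysteine protease inhibitor cystatin F, had 10.97 and 11.44 in TAU and 8.37, 7.98 and 8.38 in young SIRT1F/F (2.96 ± 0.28, adjusted p = 5.86e-05), well apart. Ctsd, the aspartyl protease cathepsin D, had 10.20 and 10.36 in TAU and 9.57, 9.80 and 9.84 in young SIRT1F/F (0.55 ± 0.15, adjusted p = 0.0338). Ctsl, cathepsin L, was the list's lower member, with 8.60 and 8.60 in TAU against 9.31, 9.45 and 9.12 in young SIRT1F/F (-0.70 ± 0.21, adjusted p = 0.0498). Ctsb and Ctsz were not called, at 0.19 and 0.26. Of the wider list of 28 lysosome and autophagy genes, 2 were higher (Ctsd and the galactosidase Glb1, 0.52) and 2 lower (Ctsl and Tfeb, -0.43, the transcription factor that drives lysosomal genes). These counts are near the 7.08% and 5.77% of all genes, and the calls of Tfeb and Ctsl were lost in 13 and 9 of 16 other settings.

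The remaining called members include metabolic and transport genes. Ank, a pyrophosphate transporter, had 11.93 and 11.87 in TAU and 10.53, 10.50 and 10.51 in young SIRT1F/F, with no overlap (1.39 ± 0.10, adjusted p = 6.09e-06). Cox6a2, a subunit of cytochrome c oxidase known from muscle, differed by 1.68, Hif1a, the hypoxia-responsive transcription factor, by 1.02, and Baiap2l2 was at least 1.13-fold higher, young arrays being not well above background. Members not called besides those above were Cd52, Cd74, B2m, Timp2 and Fth1, whose differences lay between -0.10 and 0.20.

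**Figure D3:**
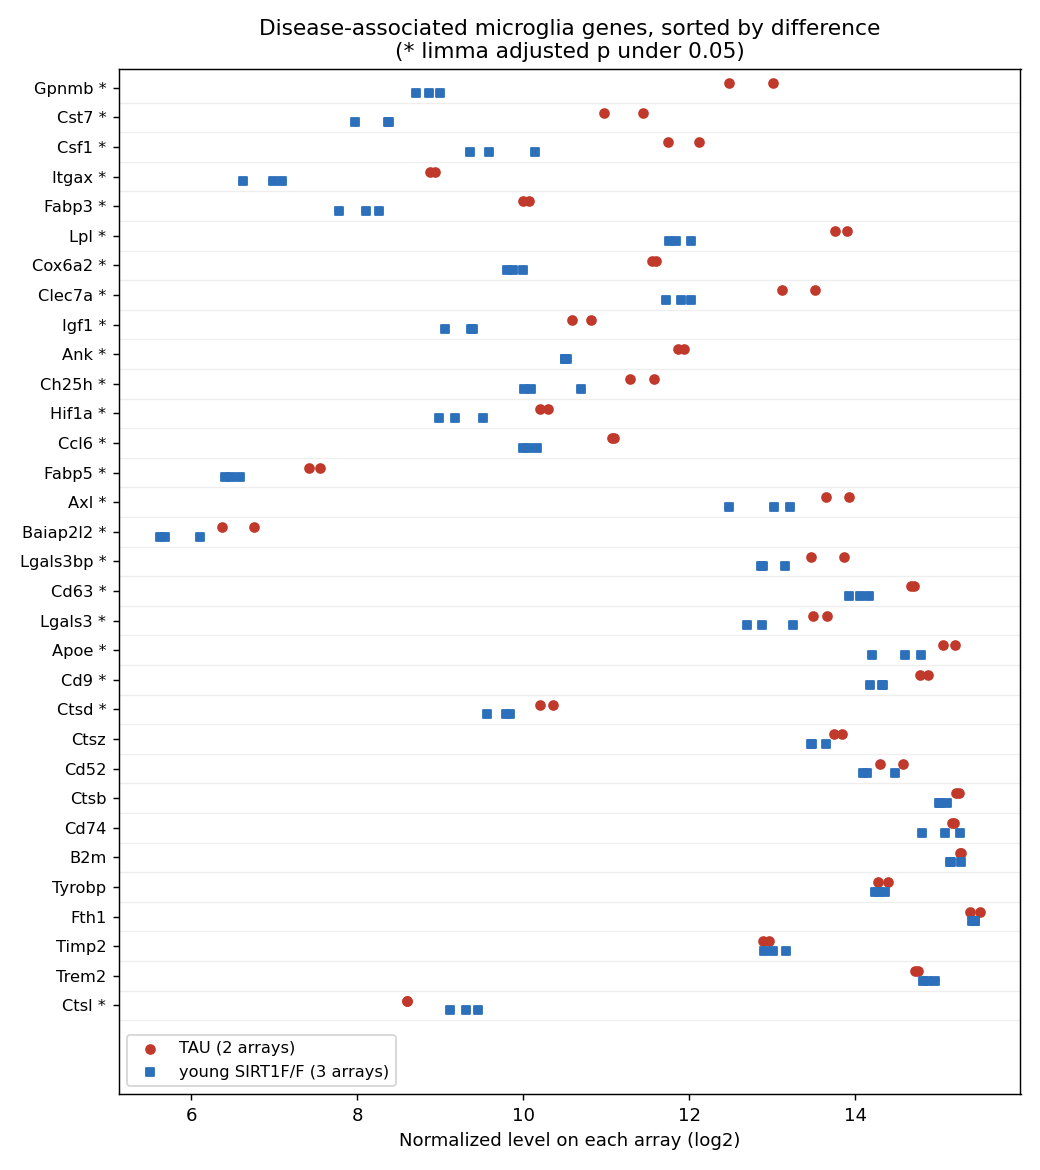
Normalized log2 level (x axis) of the 32 tested disease-associated genes on each of the 2 TAU arrays (red circles) and 3 young SIRT1F/F arrays (blue squares), sorted by difference; an asterisk marks a limma adjusted p under 0.05. The TAU arrays lie right of the young arrays for all 22 genes called higher, from Gpnmb (3.88) to Ctsd (0.55), and left of them for Ctsl (-0.70).

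To show what lies upstream of the called members, promoters of 250 bases before to 50 after the start were taken from RefSeq (GRCm38.p6). 18 of the 22 higher genes had an entry. The letters CACGTG, the E-box bound by TFEB and its relatives, were in 2 of these 18 promoters (11.1%), those of Ctsd and Hif1a, against 7.24% of all 27025 promoters. TCATGTG, another E-box form, bound by MITF, was in 2 (11.1%), Fabp3 and Lgals3bp, against 3.74%. GAGGAAGT, an ETS site of the type bound by the macrophage factor PU.1, was in 0 of 18, against 3.28%, which says only that these letters are not in these windows. Both strands were searched. The Ctsd promoter is shown because this protease gene carries CACGTG at 2 positions, starting 245 and 98 bases before the start and printed in capitals, at chr7:142387778-142388077 on the minus strand.
Ctsd: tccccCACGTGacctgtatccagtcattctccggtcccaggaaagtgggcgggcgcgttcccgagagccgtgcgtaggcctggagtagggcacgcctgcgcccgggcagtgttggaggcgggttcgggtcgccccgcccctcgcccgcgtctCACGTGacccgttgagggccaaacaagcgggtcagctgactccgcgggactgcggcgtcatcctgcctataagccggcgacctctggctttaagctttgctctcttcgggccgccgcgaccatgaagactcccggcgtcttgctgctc

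Of 24 tested homeostatic genes, 4 were lower and 0 higher in TAU, with a median of -0.23, beside 5.77% of all genes called lower. Tmem119, a surface protein of unknown function used to tell microglia from other macrophages, had 13.77 and 13.98 in TAU and 14.41, 14.65 and 14.44 in young SIRT1F/F. The groups did not overlap (-0.62 ± 0.10, limma adjusted p = 0.00239). Sall1, the transcription factor that maintains microglial identity, had 11.27 and 11.26 in TAU against 11.71, 11.76 and 12.08 in young SIRT1F/F (-0.59 ± 0.12, adjusted p = 0.00951), and its second probe differed by -0.77 and was called. Siglech, a sialic acid-binding lectin, had 13.76 and 13.82 in TAU and 14.27, 14.25 and 14.31 in young SIRT1F/F (-0.49 ± 0.08, adjusted p = 0.00333), but its other 2 probes differed by -0.05 and -0.19 and were not called. Rgs2, a regulator of G protein signalling, had 9.44 and 9.47 in TAU and 10.30, 10.41 and 10.28 in young SIRT1F/F (-0.87 ± 0.12, adjusted p = 0.000918). The purinergic receptor P2ry12 had 13.73 and 13.60 in TAU and 13.85, 13.92 and 13.83 in young SIRT1F/F, a difference of -0.21 that was not called (adjusted p = 0.424). Cx3cr1, the fractalkine receptor, differed by -0.21 (adjusted p = 0.237), P2ry13 by -0.26 and Bin1 by -0.32 (adjusted p = 0.0517). Without TAU 1, 1 member remained called lower.

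The series names IL-1beta, and its gene Il1b missed the threshold in the reported fit but passed it in 8 of 16 other settings. It had 14.91 and 14.90 on TAU arrays, against 14.67, 14.44 and 14.63 on young SIRT1F/F arrays. TAU lay above every young array, by 0.33 ± 0.10 (limma adjusted p = 0.0507), on a probe whose raw signals of 24477 to 35565 are near the top of the scale. Of 19 genes of the IL-1 family and inflammasome, 4 were higher and 0 lower, beside 7.08% and 5.77% of all genes. The median of the list was -0.002, and 9 of 19 differences were positive. Il1a, the other IL-1 ligand, had 14.32 and 14.22 in TAU and 12.83, 13.35 and 13.44 in young SIRT1F/F (1.06 ± 0.22, adjusted p = 0.00787). Il1rn, the secreted antagonist, differed by 0.87 and the alarmin Il33 by 1.37. Il1r1, the signalling receptor, was at least 1.42-fold higher. Il33 is also known from oligodendrocytes and astrocytes, which had 19 of 23 and 10 of 15 genes higher on the same arrays. In TAU/LysM against young LysM-Cre, where these lists had 0 and 1 gene higher, Il33 differed by 0.13. Which cells the Il33 difference comes from was not tested.

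Of 24 inflammatory cytokines and chemokines, 4 were higher and 1 was lower, with a median of 0.14. Of all genes, 7.08% were called higher and 5.77% lower. Tnf had 14.33 and 14.25 in TAU and 12.38, 13.08 and 13.63 in young SIRT1F/F, whose arrays spread over more than 1 log2 unit (1.25 ± 0.26, adjusted p = 0.00924). Tnfsf9, a ligand of the TNF family, differed by 1.51, Cxcl14 by 1.12 and the interferon-inducible chemokine Cxcl10 by 0.68. Il10, an anti-inflammatory cytokine, was the lower member, with 8.16 and 8.22 in TAU against 10.36, 9.23 and 9.72 in young SIRT1F/F (-1.58 ± 0.27, adjusted p = 0.00279). Both TAU arrays were at least 1 log2 unit below each young one. Of 16 NF-kB feedback targets 2 were higher, Tnfaip2 (0.98) and Nfkbiz (0.64), and 0 lower, beside the same shares of all genes. Nfkbia differed by 0.62 without passing the test (adjusted p = 0.0645).

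Of 21 complement and phagocytic receptor genes, 4 were higher and 2 lower, beside 7.08% and 5.77% of all genes. Cd55, which stops complement activation on the cell surface, fell the most of them, with 8.25 and 7.94 in TAU and 10.85, 9.85 and 9.70 in young SIRT1F/F. The groups were over 1 log2 unit apart (-2.04 ± 0.26, adjusted p = 0.000573). Cd59a, another complement inhibitor, was higher by 1.73, and Mfge8, a bridge between apoptotic cells and integrins, by 1.09. The anaphylatoxin receptor C5ar1 differed by 0.70, the lipopolysaccharide co-receptor Cd14 by 0.48 and the Fc receptor Fcgr1 by -0.68. The calls of C5ar1 and Cd14 were lost in 9 and 6 of 16 other settings. No interferon-stimulated gene of 25, no MHC class I gene of 15, no MHC class II gene of 13 and no immediate early gene of 19 was called. The medians of these 4 lists were 0.06, 0.10, -0.03 and 0.05. The nearest to the threshold were Isg15 (0.59, adjusted p = 0.0532) and Ifit3 (0.60, adjusted p = 0.0685). They passed it in 8 and 2 of 16 other settings.

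Heat shock genes encode chaperones and their partners, which refold damaged proteins and are induced by the factor HSF1 in stressed cells. Of 12 tested, 7 were lower and 0 higher in TAU, with a median of -0.68, beside 5.77% and 7.08% of all genes. The mean level of the list was 11.44 and 11.45 on TAU arrays, against 12.24, 11.98 and 12.08 on young SIRT1F/F arrays. Hsph1, an HSP110 co-chaperone, had 11.19 and 11.16 in TAU and 12.51, 12.65 and 12.62 in young SIRT1F/F, with both groups tight and apart (-1.42 ± 0.32, limma adjusted p = 0.0140). Hspa1a, the inducible HSP70, had 13.57 and 13.54 in TAU and 14.88, 14.64 and 14.71 in young SIRT1F/F (-1.19 ± 0.26, adjusted p = 0.0104). Hmox1, the stress-induced heme oxygenase on the same list, had 11.17 and 11.30 in TAU and 12.81, 12.61 and 13.04 in young SIRT1F/F (-1.58 ± 0.38, adjusted p = 0.0189). Dnajb1 (-1.09), the HSP70 partner Bag3 (-0.79), and the mitochondrial chaperonins Hspd1 (-0.62) and Hspe1 (-0.59) were lower too. Hsp90aa1 at -0.74 (adjusted p = 0.206), Dnaja1, Hspb1, Hspa8 and the endoplasmic reticulum chaperone Hspa5 at 0.64 (adjusted p = 0.157) were not called. The calls were lost when either TAU array was left out, which leaves 1 TAU array. Without young SIRT1F/F 3 the list had 4 called. The median of the list stayed between -0.74 and -0.59 over the single-array leave-outs.

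HSF1 binds inverted repeats of GAA, so the promoters of the lower heat shock genes are shown where these letters occur. 6 of the 7 had a RefSeq promoter, and GAANNTTC or TTCNNGAA, both strands searched, was in 4 of these (66.7%), against 15.1% of all 27025 promoters. The 2 patterns may overlap by sharing a GAA. Capitals mark each match in Hspa1a (chr17:34972107-34972406, minus strand), Hsph1 (chr5:149636287-149636586, minus strand), Bag3 (chr7:128523333-128523632, plus strand) and Hspe1 (chr1:55087898-55088197, plus strand), all on GRCm38.p6. The match in Hspa1a starts 104 bases before the start, that of Bag3 42 bases after it. A match describes the letters only, and binding was not measured here.
Hspa1a: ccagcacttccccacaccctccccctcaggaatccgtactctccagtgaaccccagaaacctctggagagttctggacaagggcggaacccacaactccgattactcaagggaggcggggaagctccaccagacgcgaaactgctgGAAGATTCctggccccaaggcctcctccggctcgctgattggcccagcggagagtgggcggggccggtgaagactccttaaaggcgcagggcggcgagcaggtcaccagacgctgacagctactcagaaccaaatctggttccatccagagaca
Hsph1: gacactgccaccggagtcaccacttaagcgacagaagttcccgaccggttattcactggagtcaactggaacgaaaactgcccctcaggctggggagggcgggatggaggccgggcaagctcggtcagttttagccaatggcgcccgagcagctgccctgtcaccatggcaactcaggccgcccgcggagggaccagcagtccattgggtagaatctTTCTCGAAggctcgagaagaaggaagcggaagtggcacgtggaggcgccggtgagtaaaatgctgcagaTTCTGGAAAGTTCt
Bag3: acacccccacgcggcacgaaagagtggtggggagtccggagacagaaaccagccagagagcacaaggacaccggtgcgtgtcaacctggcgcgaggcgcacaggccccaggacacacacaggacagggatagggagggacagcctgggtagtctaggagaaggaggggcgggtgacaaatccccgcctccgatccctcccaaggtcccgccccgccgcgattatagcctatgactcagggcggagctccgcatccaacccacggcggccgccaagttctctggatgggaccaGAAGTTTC
Hspe1: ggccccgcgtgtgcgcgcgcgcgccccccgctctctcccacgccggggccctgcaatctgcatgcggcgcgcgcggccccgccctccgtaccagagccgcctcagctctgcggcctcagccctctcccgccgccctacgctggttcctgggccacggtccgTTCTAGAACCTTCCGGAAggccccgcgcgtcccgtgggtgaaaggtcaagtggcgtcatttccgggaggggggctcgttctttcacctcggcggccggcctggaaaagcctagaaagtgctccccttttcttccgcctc

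Glycolysis genes were higher in TAU by small amounts. Of 16 tested, 7 were higher and 0 lower, with a median of 0.34, beside 7.08% and 5.77% of all genes. The list's mean level was 10.86 and 10.78 in TAU against 10.50, 10.48 and 10.46 in young SIRT1F/F. Tpi1, triosephosphate isomerase, had 12.95 and 12.84 in TAU and 12.09, 12.23 and 12.20 in young SIRT1F/F, clear of each other (0.72 ± 0.09, limma adjusted p = 0.000399). The glycolytic enzymes Aldoa, Pgam1, Pfkl and Gapdh differed by 0.62, 0.57, 0.34 and 0.32, and Ldha, which makes lactate, by 0.41. The glucose carrier Slc2a1 differed by 0.96, but it is also a gene of brain endothelium and stands on that list too. Hk2, hexokinase 2, was not called at -0.35 (adjusted p = 0.0523). Without TAU 1 the list kept 1 call and without TAU 2 it kept 3. Of 24 oxidative phosphorylation genes 1 was higher (Ndufa1, 0.52) and 1 lower (Uqcrfs1, -0.56), beside 7.08% and 5.77% of all genes.

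The p53 and senescence list had 3 genes higher and 1 lower of 17, beside 7.08% and 5.77% of all genes. Its median was -0.08, and 6 of 17 differences were positive. Cdkn1a, the cell cycle inhibitor p21, had 12.48 and 12.75 in TAU and 11.22, 11.08 and 11.25 in young SIRT1F/F (1.43 ± 0.13, adjusted p = 2.86e-05), and its 3 probes gave 1.43, 1.28 and 1.43. Cdkn2b differed by 0.58, Phlda3 by 0.97 and Sesn1 by -0.53. Among 23 cell cycle genes only Stmn1, a protein that destabilises microtubules, was called, with 9.58 and 9.71 in TAU against 8.06, 8.20 and 8.15 in young SIRT1F/F (1.51 ± 0.13, adjusted p = 2.71e-05). Of 21 cholesterol and lipid genes 5 were higher, 4 of them described above and the desaturase Scd1, with 10.87 and 10.80 in TAU and 10.07, 9.43 and 9.39 in young SIRT1F/F, besides.

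Outside the lists, the widest differences included Gbp2b, an interferon-inducible GTPase, with 9.39 and 9.02 in TAU and 6.30, 5.96 and 6.45 in young SIRT1F/F (2.97 ± 0.66, limma adjusted p = 0.0121). Saa3, an acute-phase protein, had 7.14 and 7.26 in TAU and 10.23, 9.49 and 8.78 in young SIRT1F/F (-2.30 ± 0.59, adjusted p = 0.0245). The young arrays spanned more than 1 log2 unit for Saa3, and all exceeded TAU. Aoah, which inactivates lipopolysaccharide, had 8.53 and 8.84 in TAU and 10.63, 9.89 and 10.03 in young SIRT1F/F (-1.50 ± 0.19, adjusted p = 0.000538). Clec4a1, a C-type lectin of myeloid cells, differed by -1.60 (adjusted p = 0.00141) and the histone gene H3c7 by -1.67. Mettl14, a subunit of the RNA N6-adenosine methyltransferase, had 8.58 and 8.46 in TAU and 9.46, 9.63 and 9.81 in young SIRT1F/F (-1.11 ± 0.13, adjusted p = 0.00029). Zfp35, a zinc finger gene, had 7.31 and 7.05 in TAU and 8.52, 8.49 and 8.48 in young SIRT1F/F (-1.31 ± 0.11, adjusted p = 1.52e-05). The lysozyme genes were at the top of the scale: Lyz1 differed by -0.04 on a probe of raw signals 36401 to 45044 and by -2.28 and -1.77 on its 2 others, both called, and the 3 Lyz2 probes differed by 0.01, 0.05 and 0.12. Lyz1 and Lyz2 are close copies whose signals a probe may mix.

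Genes of other brain cells were higher on the TAU arrays, and by more than most microglial genes. The oligodendrocyte list had 19 of 23 tested members higher and 0 lower, with a median of 2.09, beside 7.08% and 5.77% of all genes. Its mean level was 9.94 and 10.15 on the TAU arrays, against 8.48, 8.02 and 8.04 on the young SIRT1F/F arrays, and the highest young array was the first. Mobp, a myelin protein, had 9.45 and 10.37 in TAU and 6.73, 5.86 and 5.62 in young SIRT1F/F (3.84 ± 0.38, limma adjusted p = 6.83e-05). Mbp, myelin basic protein, had 14.29 and 14.77 in TAU against 12.45, 10.45 and 10.77 in young SIRT1F/F (3.31 ± 0.65, adjusted p = 0.00649). Another Mbp probe differed by 4.28 (adjusted p = 7.96e-06) and another by -0.15. Olig1, a transcription factor of the lineage, had 10.42 and 10.64 in TAU and 8.41, 7.67 and 8.31 in young SIRT1F/F (2.40 ± 0.20, adjusted p = 1.82e-05). Mog, Opalin and Fa2h were at least 4.79-fold, 3.89-fold and 3.56-fold higher, since no young array was well above background. Cnp (0.37, adjusted p = 0.173), Aspa (-0.22), Gjb1 (-0.10) and Trf (-0.01) were not called.

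Choroid plexus and ependymal genes were higher too, 10 of 12 tested, with a median of 2.18. Beside this list and those that follow, 7.08% of all genes were called higher and 5.77% lower. The list's mean level was 11.01 and 10.52 on TAU arrays, against 9.33, 8.68 and 8.79 on young SIRT1F/F arrays. Kl, the ageing-related protein klotho, had 12.15 and 11.59 in TAU and 9.89, 8.87 and 9.15 in young SIRT1F/F (2.57 ± 0.38, adjusted p = 0.00134). Folr1, a folate receptor of the choroid plexus, had 10.75 and 10.27 in TAU and 8.51, 7.88 and 8.12 in young SIRT1F/F (2.34 ± 0.35, adjusted p = 0.00131). Ttr, transthyretin, the most abundant choroid plexus transcript, was not called (0.29, adjusted p = 0.113), at levels of 15.32 and 15.32 in TAU and 15.05, 14.98 and 15.06 in young SIRT1F/F. These are as high as those of Apoe, where intensities compress. Of the further lists, astrocytes had 10 higher and 1 lower of 15, endothelium 8 of 15 higher, mural and meningeal cells 8 of 18 higher and neurons 3 of 14 higher. Their medians were 0.87, 1.14, 0.65 and 0.35. The lower astrocyte gene was the glutamate carrier Slc1a3 (-1.48), while Gfap, the intermediate filament of astrocytes, was at least 1.37-fold higher and Aqp4 differed by 1.02. In endothelium the young arrays themselves spread, at 11.03, 10.64 and 9.93 beside 11.74 and 11.29 in TAU.

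Genes of blood leukocytes ran the other way or were not called. Neutrophil genes had 0 of 19 called and 0 of 19 positive differences, with a median of -0.51, and monocytes had 0 of 9 called with a median of -0.50. The T and NK cell list had 4 of 12 lower, among them Il7r (-0.73) and Klrd1 (-0.71), where 5.77% of all genes were called lower. Of 10 B cell genes 1 was higher (Cd22, 1.15, also known from microglia) and 2 were lower. Of 14 genes of border-associated macrophages 1 was higher, which is near the 7.08% of all genes. The part of RNA of these cells in the differences of microglial genes was not tested, since no value here separates it from the TAU group. The fit with the oligodendrocyte list's level as a covariate called 1 probe higher and 0 lower (1174 had an unadjusted p under 0.05), and the disease-associated, homeostatic, heat shock, glycolysis, oligodendrocyte and choroid plexus lists had 0 calls. That level separates TAU from all other groups, so it and the TAU group can hardly be told apart in this fit, and the standard errors grew. Gpnmb differed by 3.03 ± 0.74 (adjusted p = 0.386), Fabp3 by 2.83 ± 0.47 (adjusted p = 0.10), Csf1 by 2.93 ± 0.85 and Cst7 by 1.18 ± 0.84 in it. The disease-associated median was 0.40, against 0.73 without the covariate, the heat shock median -0.59, against -0.68, and the homeostatic median 0.13, against -0.23. With the choroid plexus level instead, a fit chosen after seeing the data, 33 probes were higher and 4 lower, among them 7 disease-associated and 3 oligodendrocyte genes.

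**Figure D4:**
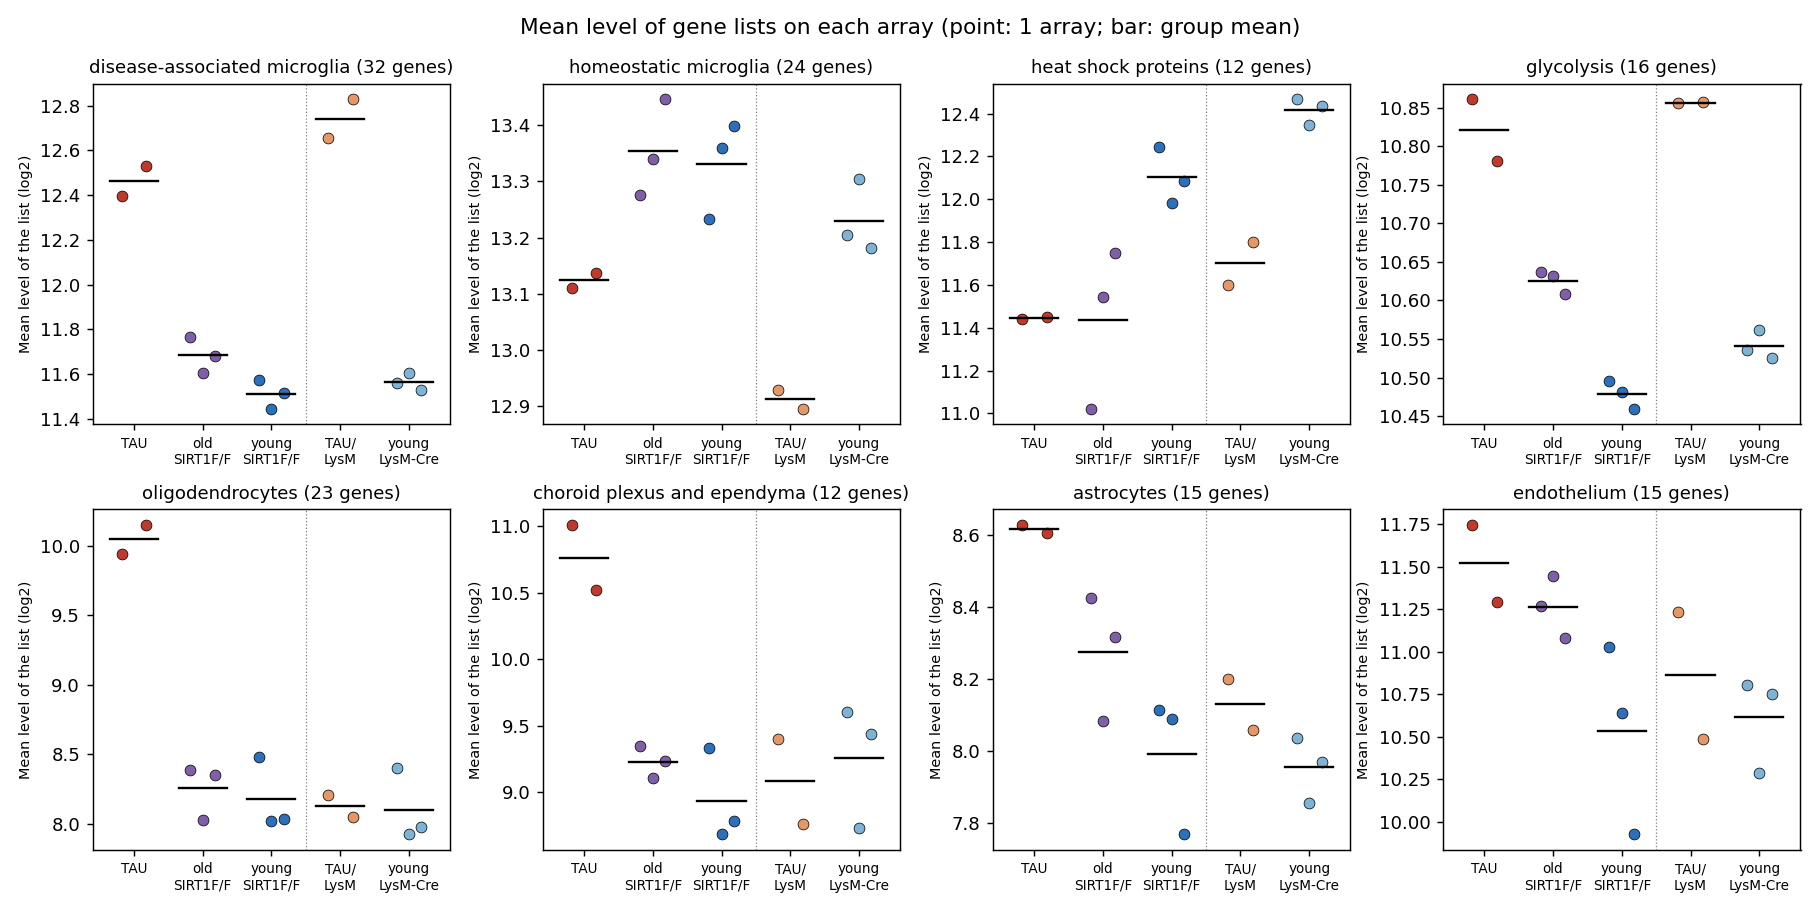
Mean normalized log2 level of 8 gene lists (y axis of each panel) on each array of TAU, old and young SIRT1F/F (left of the dotted line) and of TAU/LysM and young LysM-Cre (right of it); a point is 1 array and a bar the group mean. Disease-associated genes are high in TAU (12.39 and 12.53) and in TAU/LysM (12.65 and 12.83), oligodendrocyte genes in TAU alone of these 5 groups (9.94 and 10.15), and heat shock genes are as low in old SIRT1F/F (11.02 to 11.75) as in TAU (11.44 and 11.45).

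The contrast of TAU/LysM with young LysM-Cre shares no array with that of TAU with young SIRT1F/F. It called 1189 probes (7.27%), 566 higher (3.46%) and 623 lower (3.81%). Of the probes higher in TAU against young SIRT1F/F, 260 were also called higher in TAU/LysM against young LysM-Cre, 25.2% of the TAU list and 45.9% of the TAU/LysM list. Of the lower ones 298 were shared, 32.4% and 47.8% of the lists, and 1 probe was called in opposite directions. There 21 of 32 disease-associated genes were higher, with a median of 0.99, where 7.73% of genes were called and 3.53% higher. The list's mean level was 12.65 and 12.83 in TAU/LysM, against 11.56, 11.60 and 11.53 in young LysM-Cre. On these arrays oligodendrocyte and choroid plexus genes had 0 calls and medians of -0.08 and -0.13, and the difference between the 2 contrasts was called for 0 of the 32 disease-associated genes. Gpnmb had 13.60 and 14.22 in TAU/LysM and 8.75, 8.89 and 8.77 in young LysM-Cre, a difference of 5.11, and Apoc1 differed by 3.36. Heat shock genes had 5 lower (median -0.78), homeostatic genes 11 lower (median -0.35, 4.20% of genes called lower) and glycolysis 5 higher (median 0.34). The interferon-stimulated list had 12 of 25 higher with a median of 0.80.

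The difference between the 2 contrasts was itself tested. It was called for 50 probes (0.306%), 49 with a larger difference in TAU against young SIRT1F/F (0.300%) and 1 with a smaller one (0.00612%). At an unadjusted p under 0.05 there were 1267. Of the 50 probes 39 represent a named gene, all with a larger difference in TAU against young SIRT1F/F, and 10 of these genes are on the oligodendrocyte list and 3 on the choroid plexus list. The other 11 are further probes of a gene or, for 4, have no symbol. The difference was 3.72 for Mobp and 2.59 for Folr1. No disease-associated, homeostatic, heat shock, glycolysis or interferon-stimulated gene was called, which does not show that the contrasts agree for them.

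Old SIRT1F/F mice give TAU a second comparison. It shares the TAU arrays with the first, and the difference of old minus young shares the young and old arrays with both, so the values are set side by side. TAU against old called 652 probes (3.99%), 444 higher (2.72%) and 208 lower (1.27%), and old against young 207 (1.27%), 132 higher (0.808%) and 75 lower (0.459%). Disease-associated genes had 16 of 32 higher against old (median 0.56, with 4.45% of genes called, 3.01% higher and 1.44% lower), and 1 of 32 higher in old against young (median 0.07). Gpnmb was that gene: TAU differed from young by 3.88 and from old by 2.65, and old from young by 1.24 (limma adjusted p = 0.0125). For Itgax these 3 differences were 2.00, 2.03 and -0.03, and for Apoc1 2.88, 3.13 and -0.25. Tmem119 gave -0.62, -0.59 and -0.04, and Mettl14 -1.11, -0.9995 and -0.11. For these last 4 genes TAU was called different from young and from old, and old was not called different from young.

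Heat shock and cytokine genes had another pattern. Heat shock genes had 7 of 12 lower in TAU against young, 0 against old (median 0.00), and 4 lower in old against young (median -0.77). Tnf gave 1.25, -0.02 and 1.27, with old against young called (adjusted p = 0.0196), and Il1a gave 1.06, 0.03 and 1.03. Il10 gave -1.58, 0.24 and -1.82 (old against young, adjusted p = 0.00715), and Cd55 -2.04, -0.26 and -1.77 (adjusted p = 0.00715). Gbp2b gave 2.97, 0.08 and 2.89, and Hmox1 -1.58, -0.03 and -1.55 (adjusted p = 0.0463). None of these differences of TAU from old was called, which does not show equal levels, and the labels give no age by which to place TAU between young and old. For Cdkn1a the 3 differences were 1.43, 0.39 (adjusted p = 0.118) and 1.04. Oligodendrocyte genes had 16 of 23 higher in TAU against old (median 2.18) and a median of -0.07 in old against young, whereas endothelial genes had 0 of 15 called against old (median 0.27) and a median of 0.71 in old against young.

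**Figure D5:**
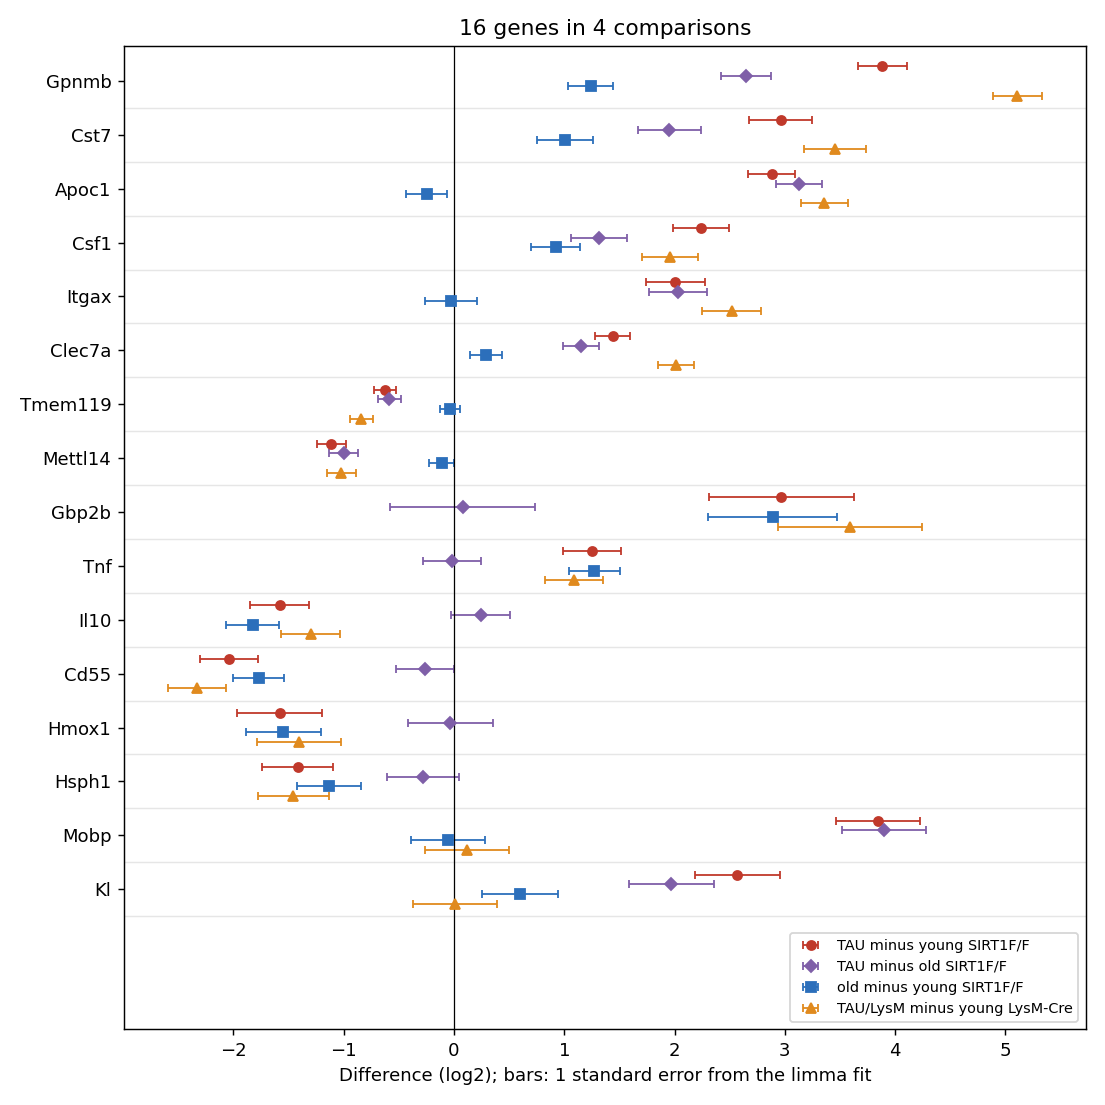
Log2 differences (x axis, bars of 1 standard error from the limma fit) of 16 genes in TAU minus young SIRT1F/F, TAU minus old SIRT1F/F, old minus young SIRT1F/F and TAU/LysM minus young LysM-Cre. From Gpnmb to Mettl14 TAU differs from both young and old mice; from Gbp2b to Hsph1 the difference of TAU from old lies near 0, between -0.28 (Hsph1) and 0.24 (Il10); Mobp and Kl differ by 3.84 and 2.57 in TAU minus young and by 0.12 and 0.01 in TAU/LysM minus young LysM-Cre.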

How the data were processed

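Illumina arrays measured RNA of 16 samples, and 5 of them form the comparison. The authors deposited an intensity table that, by its values, was neither corrected for background nor normalized, and a table of log2 values equal to quantile-normalized log2 intensity (to within 5e-09), used as an alternative. Scanner and software: not given in the sources used here. Intensities were corrected with normexp (offset 16), log2-transformed and quantile-normalized. A probe was above background past 1.645 spreads over an array's mode. One limma fit (limma 3.58.1, R 4.3.3) of 6 group means, with 10 residual and 3.68 prior degrees of freedom, gave every contrast, and p-values were Benjamini-Hochberg adjusted over 16344 probes. The script was tested on simulated data.

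Of the probes, 23978 had 1 symbol and 1719 none, and 23962 matched RefSeq. Of 678 entries in 33 lists, 612 matched a probe, 7 by another symbol, and 563 were tested. The members and lists were chosen with earlier results of these data known. Genes named are Sirt1, Il1b, Mapt, Lyz1 and Lyz2, and those chosen by rules. The first took the largest called differences (15 each way, with and without other-cell lists) among genes whose TAU and young arrays did not overlap. The non-overlap of these genes was thus fixed by the choice. Next came the 10 largest each way called against both young and old. Each list gave up to 6 called members by p, or those nearest the threshold. Every called member of 4 lists, and single members that show a list's range, were added after their values were seen. "At least N-fold" is the brighter group's mean over the dimmer group's floor, per array the higher of the lowest signal above background and the probe's own. Alternatives changed the background offset, scaling, filter, arrays, variance model, replicate block and covariates. Deviations of same-numbered TAU and young arrays correlated at 0.07 and -0.11, so the numbers are not shown to pair the samples. The number of arrays limits the precision.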

Additional observations from a re-analysis of the deposited data

Results flagged for a closer look

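The test of the difference between the 2 contrasts that share no array, TAU minus young SIRT1F/F less TAU/LysM minus young LysM-Cre, called 50 probes. Among the genes named by rule, the myelin and oligodendrocyte genes gave a difference of 3.72 for Mobp, 3.33 for Plekhb1, 2.97 for Opalin, 2.85 for Olig1, 2.84 for Prr18, 2.84 for Mog, 2.53 for Car2 and 2.22 for Fa2h (log2). The choroid plexus genes Folr1 and Sostdc1 differed by 2.59 and 2.71. Outside these lists, the difference was 2.43 for Ppp1r1b, 2.39 for Kcnk1, 1.72 for Stmn4, 1.45 for Slain1 and 1.42 for Slc39a12. All of these were higher in TAU than in young SIRT1F/F arrays, and none was called in that direction in TAU/LysM against young LysM-Cre. Slc39a12 was called lower there, at -0.63. A change of sample makeup and one of expression cannot be told apart in these bulk samples.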

How the results depend on the processing

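The counts of probes called in TAU against young SIRT1F/F moved by more than 1.5 times under several settings. For 1032 higher and 921 lower probes, the arrays of the 2 groups alone gave 314 and 83, the oligodendrocyte level as a covariate 1 and 0, and the choroid plexus level 33 and 4. Cyclic loess gave 605 lower and no filter on dim probes 467 lower. Leaving out single arrays gave 261 to 1171 higher and 82 to 1031 lower. With a replicate block 1110 were higher and 860 lower.

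For TAU against old (652), no filter gave 393, array weights 1513, the oligodendrocyte covariate 1 and single leave-outs 147 to 418. For old against young (207), no filter gave 104, the compared arrays alone 22, array weights 364, the replicate block 451 and leave-outs 14 to 401. For TAU/LysM against young LysM-Cre (1189), no filter gave 593, the compared arrays alone 217 and leave-outs 251 to 900. For the difference of contrasts (50), the deposited log2 values gave 108, an offset of 50 gave 82, the compared arrays alone 8, array weights 116, the replicate block 154, the oligodendrocyte covariate 1 and leave-outs 10 to 111. The cause of these shifts was not tested.

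Of 151 called named genes, 0 kept the call in every setting. The call was lost by 0 with array weights, 1 with trend and robust variance, 2 with an offset of 50, 4 with deposited values, 6 with cyclic loess, 11 with the replicate block, 26 with no filter and 75 with the compared arrays alone. With the oligodendrocyte covariate 122 lost the call, of which 81 kept a difference within 1.5 times of the reported one or larger (Gpnmb 3.03, Csf1 2.93, Fabp3 2.83 and Cdkn1a 1.19), and 29 turned sign, none of them called: Bcas1 -3.43, Mbp -3.88, Plekhb1 -0.67, Hmox1 0.12, Gal 1.73, Slc13a4 -0.71, Sec16b 0.50, Clu -0.065, Apoe -0.49, Il33 -0.63, Cd14 -0.43, Scd1 -0.50, Ch25h -1.54, Sox9 -0.051, Aqp4 -0.86, Atp1b1 -0.012, Map2 -0.51, Flt1 -0.49, Esam -0.27, Vwf -0.98, Igf2 -0.78, Rgs5 -1.01, Ptgds -0.95, Vtn -0.73, Il7r 0.12, Gp9 0.19, Axl -0.43, Fabp5 -0.30 and Lgals3 -0.19.

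Probes near the brightest signals, such as Apoe, Il1b and Lyz1, have compressed differences, and dim ones give bounds only. With 2 TAU arrays, a call that fails a setting is not shown to be absent.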
